A study of Homo sapiens with 4 samples.

Results

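The negative regulators of T-cell receptor (TCR) signalling are proteins that restrain the tyrosine kinase cascade of the engaged receptor. Here they were 10 genes of known function, taken by symbol from the 50868 genes listed for each library: CSK, PAG1, PTPN6, PTPN22, PTPRC, CBL, CBLB, UBASH3A, UBASH3B and SLA. Their RNA was measured by RNA-seq in Jurkat cells, a human line established from a T-cell leukemia, with all 4 libraries labelled wild type. The cells were kept for 24 h in DMSO (the vehicle), in 0.5 µM JQ1, in DMSO with 150 ng/ml PHA, or in 0.5 µM JQ1 with 150 ng/ml PHA. JQ1 displaces the BET bromodomain proteins from acetylated chromatin, and PHA is a plant lectin that crosslinks surface glycoproteins of T cells, the TCR complex included. Each condition was 1 library of 1 leukemia line, so no comparison below has a replicate check and no p-value is given between conditions.

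When the TCR is engaged, the SRC-family kinase LCK phosphorylates the CD3 and zeta chains, ZAP70 binds them, and the scaffolds LAT and SLP-76 (LCP2) are phosphorylated in turn. CSK holds LCK and FYN back by phosphorylating their inhibitory tail tyrosine, and PAG1 is the membrane adaptor that brings CSK to them. Tyrosine phosphatases remove the activating phosphates, CBL-family ligases ubiquitinate the receptor chains and kinases, the STS proteins act on the tyrosine-phosphorylated and ubiquitinated products, and the adaptor SLA lowers the receptor at the surface together with CBL.

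The libraries held between 18620954 and 19685401 counts, and the authors' FPKM (fragments scaled to gene length and library size) were the counts divided by a fixed length per gene and by the library total. A count of 3, set here as the floor, corresponded to between 0.152 and 0.161 CPM (counts scaled to the library total), and the lowest count of a negative regulator was 248. Genes known to respond to these agents were read as a check of the labels. HEXIM1, which is known to be raised by BET inhibitors, stood at 36.2 FPKM in DMSO, 108.5 in JQ1, 34.6 in DMSO + PHA and 104.3 in JQ1 + PHA, and the activation marker CD69 at 1.05, 0.766, 20.4 and 3.14 FPKM. All 11 T-lineage markers had a mean of at least 1 FPKM, and their sum was 899.8 FPKM in DMSO, 685.5 in JQ1, 1014 in DMSO + PHA and 757.2 in JQ1 + PHA. That sum was lower with JQ1, as were several negative regulators, and its part in their differences was not tested. The largest marker, TRBC1, went the other way, at 329.5 FPKM in DMSO, 363.5 in JQ1, 374.5 in DMSO + PHA and 382.8 in JQ1 + PHA. Each of the other T-lineage markers was lower with JQ1, both without and with PHA. Of the other lineages, the B-cell markers MS4A1 and BLNK had at most 3 counts in any library, none of the 6 myeloid, 4 NK or 4 erythroid markers had a mean of 1 FPKM, and CD79A was at 7.48, 1.06, 6.33 and 1.01 FPKM. In bulk RNA, fewer cells that express a gene and less RNA per cell cannot be told apart.

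With JQ1 the negative regulators did not move as a block. In JQ1 against DMSO, PTPN22 and SLA were lower past 2-fold and PAG1 was higher past 2-fold, which is 3 of the 10 genes. Over the 11503 genes with a mean of at least 1 FPKM, 13.9% were past 2-fold, 8.65% lower and 5.22% higher. In JQ1 + PHA against DMSO + PHA, PTPN22, SLA and UBASH3B were lower and PAG1 was higher past 2-fold, 4 of the 10 genes beside 11.7% of all genes, 8.0% lower and 3.69% higher. PHA alone moved the genes mostly upward: in DMSO + PHA against DMSO, PTPN6, UBASH3B and SLA were higher past 2-fold and none was lower, beside 3.29% of all genes, 2.1% higher and 1.19% lower. PTPN6 and SLA were close to that line, and with a pseudocount of 1 FPKM only UBASH3B stayed past it, beside 1.64% of all genes. In JQ1 + PHA against JQ1 none of the 10 was past 2-fold, beside 2.07% of all genes, 1.04% higher and 1.03% lower. The median log2 ratio of the 10 genes was -0.20 for JQ1 against DMSO, -0.29 for JQ1 + PHA against DMSO + PHA, 0.63 for DMSO + PHA against DMSO and 0.10 for JQ1 + PHA against JQ1, where that of all genes lay between -0.02 and -0.00. At 1.5-fold the counts were 5 of the 10 genes in JQ1 against DMSO beside 34.1% of all genes, 5 in JQ1 + PHA against DMSO + PHA beside 29.5%, 5 in DMSO + PHA against DMSO beside 9.41%, and 1 in JQ1 + PHA against JQ1 beside 5.63%. The 95% counting interval of the ratio left out 0 for 9, 9, 8 and 4 of the 10 genes in the same order, beside 75.6%, 72.9%, 49.8% and 31.4% of all genes. Folds and medians here are of FPKM plus a pseudocount of 0.1, and the intervals are of count shares. JQ1 against DMSO and DMSO + PHA against DMSO share the DMSO library, and every other pair of comparisons that names a common condition shares that library in the same way.

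By mean FPKM over the 4 libraries PTPRC came first at 102 FPKM, above 98.5% of the genes with a mean of at least 1 FPKM. It was followed by CBL at 12.4, CSK at 11.5, SLA at 8.13, UBASH3B at 7.30, PAG1 at 6.76, PTPN6 at 5.17, PTPN22 at 4.01, UBASH3A at 3.71 and CBLB at 1.98 FPKM. The range over libraries of each gene overlapped that of the next in this order, except between PTPRC and CBL and between UBASH3A and CBLB. The order in the middle depends on the gene length: the lengths implied by the FPKM were 1.14 (PAG1) to 4.93 (PTPN6) times the length of the canonical transcript of GENCODE release 44. Per kilobase of that transcript, an alternative chosen after the data were seen, PTPRC stayed first and CBLB last while the other 8 genes took another rank. Across conditions, which length does not touch, 6 of the 10 genes spanned at least 2-fold, 8 of the 10 were highest in the DMSO + PHA library, and 5 were lowest in the JQ1 library. The matching shares over all genes were not computed, so these counts describe the 10 genes and set them apart from no others.

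The kinase and its anchor went in opposite directions. CSK (ENSG00000103653; chromosome 15, 74782057 to 74803198, plus strand, GRCh38) was at 12.7 FPKM in DMSO, 9.84 in JQ1, 13.2 in DMSO + PHA and 10.4 in JQ1 + PHA. The JQ1 libraries were the lower pair, by a log2 ratio of count shares of -0.37 without PHA (95% exact interval -0.46 to -0.29) and -0.35 with PHA (-0.43 to -0.26). Such a shift was common, since 28.6% and 28.4% of all genes had a ratio as low or lower. The ratios of CSK for PHA were 0.05 (-0.03 to 0.13) in DMSO and 0.08 (-0.02 to 0.17) in JQ1. All such intervals cover counting error only, not the spread between cultures. PAG1 (ENSG00000076641; chromosome 8, 80967810 to 81112068, minus strand) was at 3.80 FPKM (880 counts) in DMSO, 10.1 (2449) in JQ1, 2.96 (717) in DMSO + PHA and 10.2 (2328) in JQ1 + PHA. Its JQ1 libraries were thus at nearly one level and both DMSO libraries were below them. The difference was 2.66-fold without PHA, a log2 ratio of 1.41 (1.30 to 1.52), and 3.43-fold with PHA, 1.78 (1.66 to 1.90), ratios that 2.22% and 0.80% of all genes matched or exceeded. PAG1 was the one gene of the 10 with a negative PHA ratio in DMSO, -0.36 (-0.51 to -0.22), and in JQ1 its PHA ratio was 0.01 (-0.08 to 0.09). The MATK gene, whose product is the closest relative of CSK, had 0 counts in every library.

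The 3 phosphatases each had a pattern of their own. PTPN22, the phosphatase called LYP that binds CSK and dephosphorylates LCK and ZAP70 (ENSG00000134242; chromosome 1, 113813811 to 113871759, minus strand), was at 5.90 FPKM (977 counts) in DMSO, 1.43 (248) in JQ1, 7.08 (1226) in DMSO + PHA and 1.61 (263) in JQ1 + PHA. Both JQ1 libraries were far below both DMSO libraries, 4.12-fold without PHA at a log2 ratio of -2.04 (-2.25 to -1.84) and 4.41-fold with PHA at -2.14 (-2.34 to -1.95). Of all genes, 1.78% and 1.63% had a ratio as low or lower. PHA changed PTPN22 little beside that, with log2 ratios of 0.26 (0.14 to 0.39) in DMSO and 0.16 (-0.09 to 0.42) in JQ1. PTPN6, the SH2-domain phosphatase SHP-1 (ENSG00000111679; chromosome 12, 6946468 to 6961316, plus strand), was at 4.04 FPKM (810 counts) in DMSO, 2.85 (597) in JQ1, 8.73 (1832) in DMSO + PHA and 5.07 (1006) in JQ1 + PHA. PTPN6 was higher with PHA on either background, 2.16-fold in DMSO at a log2 ratio of 1.11 (0.99 to 1.23) and 1.78-fold in JQ1 at 0.83 (0.68 to 0.98), and the second of these was the only PHA ratio in JQ1 among the 10 genes past 1.5-fold. With JQ1 it was lower, at -0.50 (-0.66 to -0.35) without PHA and -0.78 (-0.90 to -0.67) with PHA.

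PTPRC encodes CD45, the abundant receptor phosphatase that removes both the inhibitory and the activating phosphate of LCK and so is a positive as well as a negative regulator. It lies on chromosome 1 from 198638671 to 198757283, plus strand (ENSG00000081237), and was at 70.7 FPKM (12687 counts) in DMSO, 112 (21101) in JQ1, 123 (23036) in DMSO + PHA and 104 (18538) in JQ1 + PHA. The DMSO library was the low one, and the other 3 lay above it. JQ1 went with more PTPRC without PHA, a log2 ratio of 0.67 (0.64 to 0.70), and with less PTPRC with PHA, -0.23 (-0.26 to -0.21). PHA likewise gave 0.80 (0.76 to 0.83) in DMSO and -0.11 (-0.14 to -0.08) in JQ1. Both changes of direction rest on single libraries, and all 4 ratios use the 12687 to 23036 counts of this gene, which make the intervals narrow without speaking of culture spread.

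PTPN22 and UBASH3B are shown by the sequence just before their RefSeq start because both were lower past 2-fold in JQ1 + PHA against DMSO + PHA. The RefSeq promoter table for GRCh38.p14 matched 6 of the 10 genes, namely CSK, PTPN6, PTPN22, PTPRC, CBLB and UBASH3B. RefSeq places the start of either gene slightly downstream of the gene bounds given with the values, so the windows reach inside those bounds. The 250 bases before the RefSeq start are printed on the strand of the gene, chr1:113871713-113871962 (minus) for PTPN22 and chr11:122655472-122655721 (plus) for UBASH3B, with capitals for matches on either strand of GGAAA, the core of NFAT sites (TTTCC on the other strand), or of TGTGGT, the RUNX core (ACCACA on the other strand).
PTPN22: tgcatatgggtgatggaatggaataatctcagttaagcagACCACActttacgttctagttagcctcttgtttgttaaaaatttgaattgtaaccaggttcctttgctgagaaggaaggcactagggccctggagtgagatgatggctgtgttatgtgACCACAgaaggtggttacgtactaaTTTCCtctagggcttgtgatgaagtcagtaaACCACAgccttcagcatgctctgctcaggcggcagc
UBASH3B: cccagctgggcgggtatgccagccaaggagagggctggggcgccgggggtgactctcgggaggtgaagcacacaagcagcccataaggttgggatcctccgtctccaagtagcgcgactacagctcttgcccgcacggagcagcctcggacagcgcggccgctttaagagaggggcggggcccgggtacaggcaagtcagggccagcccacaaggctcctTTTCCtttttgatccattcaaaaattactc
PTPN22 held 1 GGAAA match and 3 TGTGGT matches at 45.6% GC, and UBASH3B held 1 GGAAA match at 62.4% GC. Over 35116 promoters of the same length, 55.6% held GGAAA, 11% held TGTGGT and 27 (0.0769%) held TGTGGT at least 3 times. The cut of 3 was not planned beforehand and equals the number found in PTPN22. CSK, PTPRC and 1 of the PTPN6 windows, whose genes were not past 2-fold with JQ1, also held 1 GGAAA match. Neither the PTPN22 nor the UBASH3B window held TGANTCA, the AP-1 motif found in 6.57% of promoters, or CACGTG, the E-box found in 6.34%. A match describes letters only, and no binding of a factor was measured here.

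The ubiquitin ligases were both lowest in the DMSO library. CBL (ENSG00000110395; chromosome 11, 119206276 to 119308149, plus strand) was at 9.49 FPKM in DMSO, 12.9 in JQ1, 13.7 in DMSO + PHA and 13.3 in JQ1 + PHA, so that the 3 treated libraries lay close together above the vehicle. Its log2 ratio was 0.44 (0.37 to 0.51) for JQ1 and 0.53 (0.46 to 0.60) for PHA, each against DMSO. With the other agent present the ratios were -0.05 (-0.11 to 0.02) for JQ1 and 0.04 (-0.02 to 0.11) for PHA, differences not detectable at this depth, and the sign of the JQ1 value turned under another scaling of the counts. CBLB, the ligase that raises the need for CD28 costimulation (ENSG00000114423; chromosome 3, 105655461 to 105869552, minus strand), was at 1.11 FPKM (314 counts) in DMSO, 2.32 (684) in JQ1, 1.90 (562) in DMSO + PHA and 2.61 (730) in JQ1 + PHA. CBLB was higher with JQ1 on either background, at 1.06 (0.86 to 1.26) without PHA and 0.46 (0.30 to 0.62) with PHA, and higher with PHA, at 0.77 (0.57 to 0.98) in DMSO and 0.17 (0.02 to 0.33) in JQ1. Its ratio in JQ1 against DMSO was 2.08-fold by counts and 1.0 on the log2 scale of FPKM with the pseudocount, just under the 2-fold line, so CBLB was the gene nearest that threshold. CBLB made up 10.5% of the summed FPKM of CBL and CBLB in DMSO, 15.2% in JQ1, 12.2% in DMSO + PHA and 16.4% in JQ1 + PHA, and CBLC had 0 counts throughout. These shares depend on the gene length. The ratio of CBL to CBLB was 8.54, 5.57, 7.22 and 5.09 by FPKM in the same order. With canonical transcript lengths it was 5.33, 3.47, 4.50 and 3.18.

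The STS phosphatase family paired the steadiest gene of the 10 with one of the most responsive. UBASH3A, or STS-2, found mainly in lymphocytes (ENSG00000160185; chromosome 21, 42403447 to 42447681, plus strand), was at 3.69 FPKM (456 counts) in DMSO, 3.58 (463) in JQ1, 4.11 (532) in DMSO + PHA and 3.47 (424) in JQ1 + PHA. Its 4 libraries lay within a narrow band, and only the interval of JQ1 + PHA against DMSO + PHA, -0.25 (-0.43 to -0.06), left out 0. The others were -0.04 (-0.23 to 0.15) for JQ1 against DMSO, whose sign turned under another scaling of the counts, 0.16 (-0.03 to 0.34) for DMSO + PHA against DMSO and -0.05 (-0.24 to 0.15) for JQ1 + PHA against JQ1. UBASH3B, or STS-1, the more active phosphatase (ENSG00000154127; chromosome 11, 122655675 to 122814473, plus strand), was at 5.45 FPKM (1075 counts) in DMSO, 3.76 (777) in JQ1, 15.9 (3279) in DMSO + PHA and 4.13 (806) in JQ1 + PHA. The DMSO + PHA library stood far above the other 3. UBASH3B was 2.92-fold higher with PHA in DMSO, a log2 ratio of 1.54 (1.44 to 1.64) that 0.904% of all genes matched or exceeded, and in JQ1 the PHA ratio was 0.13 (-0.01 to 0.28). JQ1 against DMSO gave -0.53 (-0.67 to -0.40), and JQ1 + PHA against DMSO + PHA gave -1.94 (-2.06 to -1.83), 3.85-fold lower, with 1.89% of all genes as low or lower. UBASH3B made up 59.6% of the summed FPKM of both STS genes in DMSO (95% interval 56.9 to 62.3), 51.2% in JQ1 (48.3 to 54.2), 79.4% in DMSO + PHA (77.9 to 80.9) and 54.3% in JQ1 + PHA (51.4 to 57.3). Which gene is the higher one depends on the length used, since with canonical transcript lengths the ratio of UBASH3A to UBASH3B was 1.16, 1.62, 0.442 and 1.43 in the same order, but on both scales the UBASH3B share was largest in DMSO + PHA.

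SLA, the adaptor SLAP that directs CBL to the TCR zeta chain (ENSG00000155926; chromosome 8, 133036724 to 133103054, minus strand), was at 8.59 FPKM (2328 counts) in DMSO, 2.79 (791) in JQ1, 17.6 (4993) in DMSO + PHA and 3.54 (950) in JQ1 + PHA. Both JQ1 libraries lay below both DMSO libraries, and the DMSO + PHA library was the highest. PHA went with 2.05-fold more SLA in DMSO, a log2 ratio of 1.04 (0.96 to 1.11), and with 0.34 (0.21 to 0.48) in JQ1. JQ1 went with 3.08-fold less SLA without PHA, -1.62 (-1.74 to -1.50), and 4.97-fold less with PHA, -2.31 (-2.42 to -2.21), a ratio that 1.33% of all genes matched or fell below and the lowest among the 10 genes in either JQ1 comparison. SLA overlaps the thyroglobulin gene TG on the other strand, and TG had 0, 2, 1 and 4 counts in the 4 libraries, in all 0.0772% of the SLA counts. Of the 10 genes 4 overlapped another gene, 7 such genes in all and each on the opposite strand. Whether strand was used in counting is not given in the sources used here.

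The ratios for JQ1 with PHA and without it use 4 separate libraries and were set against each other gene by gene. The difference of the log2 ratios, with PHA minus without, was below 0 for 8 of the 10 genes. The share of all genes below 0 was not computed, and their median was -0.00. The 95% interval of the difference left out 0 for 7 of the 10, beside 41.9% of all genes. The difference was past 2-fold for UBASH3B, at -1.41 (-1.58 to -1.24), and for no other of the 10, beside 4.92% of all genes (2.93% lower and 1.99% higher), and 1.56% of all genes had a difference as low or lower. PTPRC followed at -0.90 (-0.94 to -0.86), SLA at -0.69 (-0.85 to -0.54), CBLB at -0.60 (-0.85 to -0.35), CBL at -0.49 (-0.58 to -0.39) and PTPN6 at -0.28 (-0.47 to -0.09). For these genes the PHA ratio was smaller in JQ1 than in DMSO by the same amount. PAG1 had a difference above 0, at 0.37 (0.20 to 0.53). For PTPN22 the difference was -0.10 (-0.38 to 0.18), for CSK 0.02 (-0.10 to 0.14) and for UBASH3A -0.20 (-0.47 to 0.06), so no change of the JQ1 ratio with PHA was detectable at this depth. The median difference was -0.38 over the 10 genes and -0.00 over all genes.

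**Figure D1:**
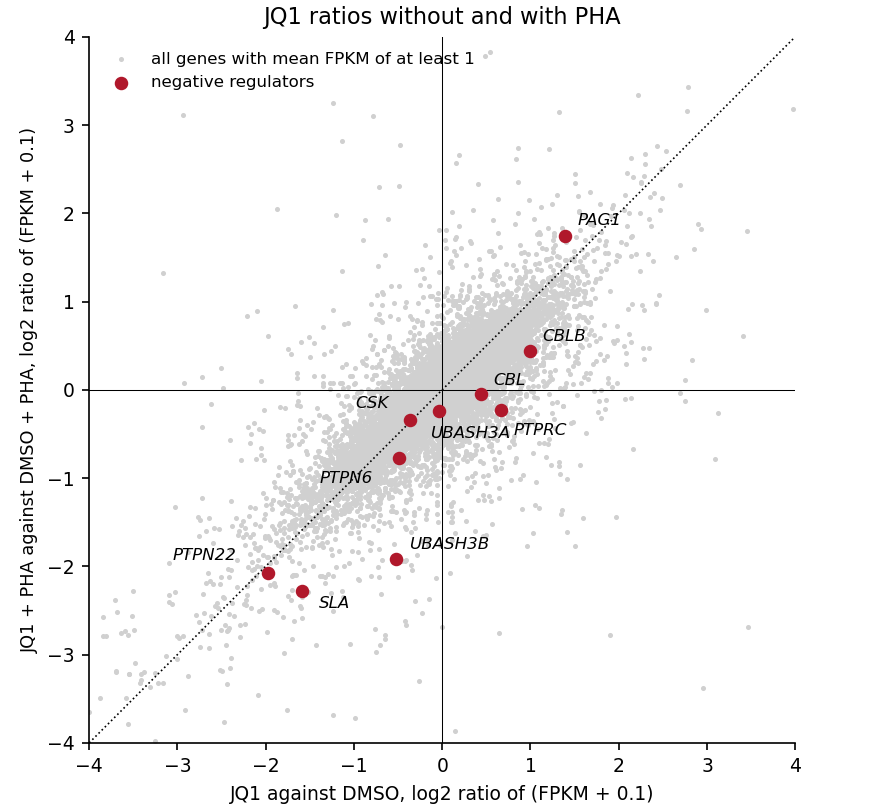
Log2 ratio of FPKM plus 0.1 for JQ1 against DMSO (horizontal) and for JQ1 + PHA against DMSO + PHA (vertical), with the 10 negative regulators over all genes of at least 1 FPKM on average; 46 genes lie outside the axes, and the dotted line marks equal ratios. UBASH3B lies furthest below the dotted line, PTPN22 and CSK lie next to it, and PTPRC has crossed from above 0 to below 0. CBL goes from 0.44 to -0.05, the latter not apart from 0 at this depth.

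Close relatives of these genes differed among themselves. PTPN11, the phosphatase SHP-2 and the relative of PTPN6, was at 61.5 FPKM in DMSO, 67.3 in JQ1, 73.6 in DMSO + PHA and 71.0 in JQ1 + PHA, and the ratio of PTPN6 to PTPN11 was 0.0657, 0.0423, 0.119 and 0.0714 by FPKM. With canonical transcript lengths this ratio was 0.239, 0.154, 0.432 and 0.26, and on both scales PTPN6 was the lower of the pair in every library. PTPN12, the phosphatase PTP-PEST and the relative of PTPN22, moved opposite to PTPN22, at 0.773 FPKM (120 counts), 2.74 (445), 0.973 (158) and 3.49 (537) in the same order, with log2 ratios of 1.70 and 1.74 for JQ1 without and with PHA. The ratio of PTPN22 to PTPN12 was 7.64 in DMSO and 7.28 in DMSO + PHA but 0.523 in JQ1 and 0.459 in JQ1 + PHA, so PTPN22 was the higher of the pair in both DMSO libraries and the lower in both JQ1 libraries. SLA2, the SLA relative that likewise lowers the receptor, was at 17.2 FPKM in DMSO, 4.06 in JQ1, 19.4 in DMSO + PHA and 4.0 in JQ1 + PHA. SLA2 was thus lower with JQ1 as SLA was, at -2.06 without PHA and -2.25 with PHA, while its PHA ratio in DMSO was 0.17 where that of SLA was past 2-fold. Of the 8 relatives looked up, 5 had a mean of at least 1 FPKM, and in either JQ1 comparison SLA2 was lower and PTPN12 higher past 2-fold. That is 40% of the 5, beside 13.9% of all genes without PHA and 11.7% with PHA. PTPN12 was under 1 FPKM in both DMSO libraries and reached a mean of 1 FPKM only through the JQ1 libraries, so its place in this count depends on its JQ1 values.

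The proteins around the negative regulators were read from lists chosen with earlier results of these data known. Beside each count below, the shares over all genes past 2-fold were 13.9% in JQ1 against DMSO (8.65% lower), 11.7% in JQ1 + PHA against DMSO + PHA (8.0% lower), 3.29% in DMSO + PHA against DMSO and 2.07% in JQ1 + PHA against JQ1. Among 20 measured binding partners, 4 were lower and none was higher past 2-fold in JQ1 against DMSO, and 3 were lower and 1 higher in JQ1 + PHA against DMSO + PHA, or 20% past 2-fold in each, with medians of -0.04 and -0.00. Those lower in both were CD5, a receptor that recruits CBL and phosphatases, at log2 ratios of -1.56 and -2.04, its relative CD6 at -1.47 and -1.79, and the adaptor LAX1 at -1.81 and -1.40. The fourth without PHA was PTPRCAP, the protein that associates with CD45, at -1.16, and the higher one with PHA was the adaptor CRK at 1.2, both named after their values were seen. CD6 was at 0.442 FPKM in JQ1 and 0.634 in JQ1 + PHA, and reached a mean of 1 FPKM only through the DMSO libraries. Its place in both counts of lower partners thus depends on its DMSO values. With PHA in DMSO, CRK was the 1 partner past 2-fold, at -1.04, and in JQ1 LAX1 at 1.14 and TRAF3 at 1.21 were. Among 19 kinases, receptor chains and adaptors that the negative regulators act on, 3 were lower and 1 higher past 2-fold without PHA (21.1%), and 9 were lower with PHA (47.4%). LCK, the kinase that CSK, PTPN22 and PTPRC act on, was at 51.7 FPKM in DMSO, 14.4 in JQ1, 47.7 in DMSO + PHA and 13.9 in JQ1 + PHA, with log2 ratios of -1.84 and -1.77. The adaptor GRAP2 was at -2.76 and -2.63 and the receptor chain CD3E at -1.13 and -1.16. The higher one was the kinase PRKCQ at 1.25. With PHA in DMSO, CD28 at 1.5 and LCP2 at 2.19 were past 2-fold, and these 3 were likewise named after their values were seen. The median of this list was -0.75 without PHA and -0.99 with PHA, where the 10 negative regulators had -0.20 and -0.29 and all genes -0.01 and -0.02.

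A wider list of regulators, mostly negative ones, held 25 measured genes. A negative role is not settled for its adaptors TRAT1, SH2D2A and SH2D1A, which are counted here with the rest. Of the 25, 2 were higher and 6 lower past 2-fold in JQ1 against DMSO (32% beside 13.9% of all genes), and 7 were lower in JQ1 + PHA against DMSO + PHA (28% beside 11.7%). The list medians of -0.06 and -0.05 were near those of all genes, -0.01 and -0.02. PECAM1, an inhibitory receptor that recruits SH2-domain phosphatases, was at 14.0 FPKM in DMSO, 1.65 in JQ1, 19.1 in DMSO + PHA and 2.22 in JQ1 + PHA, with log2 ratios of -3.01 and -3.05. The adaptor DOK2 was at -2.44 and -2.74, the phosphatase PTPN7 at -1.15 and -1.17, the LCK-binding adaptor SH2D2A at -1.12 and -2.35, and TRAT1, a TCR-associated adaptor, at -1.26 and -1.47. The kinase MAP4K1, which phosphorylates LCP2 and damps the cascade, was also lower, at -1.37 and -1.07, and the higher pair without PHA was the ligase PELI1 at 1.07 and the kinase STK17B at 1.35. The seventh with PHA was SH2D1A, the adaptor SAP, at -1.98 beside -0.36 without PHA, and these 4 were named after their values were seen. DOK2 was at 0.397 FPKM in JQ1 and 0.666 in JQ1 + PHA, and reached a mean of 1 FPKM only through the DMSO libraries. Its place in both counts of lower genes thus depends on its DMSO values. SH2D2A was also low with JQ1, at 0.695 FPKM without PHA and 1.16 with PHA. PHA in DMSO placed 1 of the 25 (4%, beside 3.29% of all genes) past 2-fold, SH2D2A, which was at 1.63 FPKM in DMSO and 6.29 in DMSO + PHA.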

How the data were processed

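RNA-seq was made of 1 Jurkat library per condition, and groups were taken from the sample labels. The authors deposited counts per gene and FPKM per gene, 1 table per library. The labels name Hisat2 2.0.4 on GRCh38, the submitters' processing notes also name TopHat2 2.0.9 and Cufflinks 2.1.1, and the counting tool, its strand setting and the annotation release are not given in the sources used here. The library kit differs between the labels and the methods. The FPKM equalled counts over length and library total in 12689 genes, to a relative spread of 4.65e-05.

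Genes were matched by symbol, and 11503 with a mean of at least 1 FPKM entered the shares and medians, on the log2(FPKM + 0.1) scale, which understates the change of low genes. For single genes the ratio of shares of counts was given with a 95% exact (Clopper-Pearson) interval, and the difference of 2 ratios with a Wald interval. Totals were 18815190 counts (DMSO), 19677571 (JQ1), 19685401 (DMSO + PHA) and 18620954 (JQ1 + PHA). With 1 library per group no test was made. edgeR 4.0.16 and DESeq2 1.42.0 served only for scaling factors, beside Python 3.11.15, pandas 2.3.3 and scipy 1.17.1. The members and lists were chosen with earlier results of these data known. Named were all 10 genes, those of each other list past 2-fold in the same direction in both JQ1 comparisons (at most 5 a list), the direct relatives, and for each gene spanning 2-fold the 3 genes with the most similar pattern. Of 200 genes given a known 4-fold change in a check of the JQ1 against DMSO code over 11503 genes, 198 were found past 2-fold, as were 40 of 11303 unchanged genes. The simulated counts held counting error only and no spread between cultures. The check therefore covers the code and gives no rate of false calls for these libraries. Protein sequences were not used here.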

Additional observations from a re-analysis of the deposited data

Results flagged for a closer look

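PTPRC had ratios of opposite sign on the 2 backgrounds of each contrast. The log2 ratio of its count shares was 0.67 for JQ1 against DMSO and -0.23 for JQ1 + PHA against DMSO + PHA, and it was 0.80 for DMSO + PHA against DMSO and -0.11 for JQ1 + PHA against JQ1. Since conditions had no replicate, the difference between backgrounds was not tested, and both contrasts use the same 4 libraries.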

How the results depend on the processing

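The count past 2-fold and the median of the 10 genes in each comparison were recomputed with a pseudocount of 1 or 0.01 FPKM, a lower or no filter, a 1.5-fold threshold, edgeR TMM factors, DESeq2 size factors and centring on the median gene, and 55 of these 60 values stayed within the limits set for them. These limits are loose for counts, since a change from 3 to 4 genes or from 4 to 5 fell within them. At 1.5-fold, 5 of the 10 genes were past the threshold in JQ1 against DMSO, beside 34.1% of all genes. In DMSO + PHA against DMSO 5 were, beside 9.41%, and in JQ1 + PHA against JQ1 it was 1, beside 5.63%. With a pseudocount of 1, DMSO + PHA against DMSO had 1 gene (UBASH3B) past 2-fold, beside 1.64% of all genes. The median of the 10 genes was then 0.47, with PTPN6 and SLA no longer past the threshold. The other lists were not recomputed. CBLB passed 2-fold in JQ1 against DMSO, for 4 genes in all, with a pseudocount of 0.01 and under TMM, DESeq2 or median scaling. The shares of all genes past 2-fold were then 14.8%, 13.9%, 13.7% and 13.9%, in that order. Of 150 single values, 147 stayed within their counting interval and the other 3 were PTPRC, at 0.71 (DESeq2) without PHA and -0.18 (TMM) and -0.17 (DESeq2) with PHA for JQ1. Each scaling shifted all genes of a comparison by the same amount, between -0.02 and 0.06 on the log2 scale. Whether a value stayed within its interval therefore depended on the interval width, and the many counts of PTPRC make its intervals narrow. The sign turned for CBL with PHA, to 0.00 (TMM) and 0.01 (DESeq2), and for UBASH3A without PHA, to 0.00 (DESeq2), all within the interval. No paired analysis was possible because each condition had 1 library, and for the same reason none could be left out. Counting error limits UBASH3A, CBLB and PTPN22 most, and the spread between cultures is unknown for all.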

Other observations

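For the 6 genes that spanned at least 2-fold, the genes with the most similar pattern were those with the smallest root mean square difference of log2(FPKM + 0.1), centred over the 4 libraries. For PTPN22 they were the RNA gene SNHG4 at 0.08, the phosphatase inhibitor PPP1R14B at 0.09 and SLA2 at 0.10. For UBASH3B they were ITM2A, at 0.07, NDST1 at 0.09 and ADCYAP1 at 0.15, and for SLA the pseudogene AC000078.5 at 0.11, PUDP at 0.11 and SRGN at 0.12. CBLB had 47 genes within 0.1, led by QSOX1, DTX1 and SUSD6 at 0.03, 0.03 and 0.04, and PAG1 had 10, led by ZDHHC11B at 0.01, APBA1 at 0.07 and EPHX1 at 0.07. PTPN6 had none within 0.1, and its nearest were DRAXIN at 0.11, the pseudogene GAPDHP62 at 0.12 and ZNF507 at 0.14. With 4 libraries and 11503 genes, such likeness is a description.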
